A study of Mus musculus with 4 samples.

Results

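Axon guidance ligands and receptors were examined as a list of 40 protein-coding genes, out of the 21938 on chromosomes 1 to 19, X and Y in GENCODE release M21, chosen by name from the pathway with earlier results of these data known. They comprised 27 genes of the semaphorin/plexin group (18 semaphorins, 7 plexins and the neuropilins *Nrp1* and *Nrp2*), 6 of the slit/robo group (*Slit1* to *Slit3* and *Robo1* to *Robo3*) and 7 of the netrin group (*Ntn1*, *Ntn4*, *Dcc* and *Unc5a* to *Unc5d*). Chromatin accessibility had been measured by ATAC-seq, in which a transposase cuts open DNA, in 4 untreated mouse small cell lung cancer (SCLC) lines with 1 library per line. All lines came from lung tumors of *RP* mice, which carry floxed *Rb1* L/L and *Trp53* L/L alleles on a mixed C57Bl/6, Balb-c and S129 background and received adenoviral Cre under the CMV promoter, active in many cell types, through the trachea as young adults. SMC lines 1 and 2 (SCLC metastasizing cells) were sorted as NCAMhi CD44lo/- and grow in suspension, while non-SMC lines 1 and 2 were sorted as NCAMlo CD44hi and grow attached. The lines are numbered within each type, and line pair 1 and line pair 2 below mean only lines of equal number, since the sources used here do not say that such lines share a mouse or a tumor. No normal lung cell and no line with intact *Rb1* and *Trp53* was among them, and both subpopulations carry the same deletions. The ages of the mice when the tumors were taken, the number of mice per line and whether a line is a clone are not given in the sources used here.

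Axon guidance molecules steer growing nerve fibers and migrating cells. Semaphorins signal through plexins, and the secreted class 3 semaphorins mostly need neuropilins as coreceptors. Slits are secreted repellents that bind Robo receptors, and netrins attract through Dcc and repel through Unc5 receptors. Several of these genes are also active outside the nervous system, in vessels, lung and tumors, and neuroendocrine SCLC cells share many expressed genes with neurons.

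The deposited values were lists of peaks, called in each library separately with MACS2. A peak is a stretch of DNA with more transposase cuts than its local background. On the chromosomes kept, SMC lines 1 and 2 had 91057 and 153954 listed peaks and non-SMC lines 1 and 2 had 115837 and 128710. Strong peaks, those with a -log10 q of at least 5, made up between 14.3% and 38.0% of a list, the most in non-SMC line 1. Because the lists differ in length, numbers of peaks are given as they stand and also as a share, the number per 100000 listed peaks of the same library. As a check of the labels, the promoter of *Chga*, a neuroendocrine gene, had peaks in each SMC line and none in the non-SMC lines. The 5 genes listed for non-SMC (*Cd44*, *Vim*, *Wwtr1*, *Yap1*, *Axl*) each took a higher share in both non-SMC lines than in either SMC line. *Ncam1*, which encodes the sorted protein NCAM, did not separate the types, with 9 and 31 peaks in the SMC lines and 32 and 25 in the non-SMC lines, and its promoter was open in all 4, as was that of *Syp*. Of 7 markers of other cells that a tumor sort could hold (leukocytes, endothelium, fibroblasts, alveolar cells), 2 (*Cd68*, *Sftpc*) took a higher share in both non-SMC lines, and the *Pecam1* promoter was open in each non-SMC line but not in the SMC lines. The part of such cells in the values below was not tested, and in bulk libraries a site open in few cells cannot be told apart from a site weakly open in all. The smallest p that a two-sided exact permutation test allows with 2 libraries per type is 0.333, so the types were compared without a test. Differences are set against the SD between lines of a type, and groups are called separate where both lines of a type lie above both lines of the other.

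For each gene, peaks were counted in a window of the gene body with 10 kb on each side. Peaks of the 4 libraries that overlapped by at least 1 base were merged into regions. A region was SMC-only if each SMC line had a peak there while the non-SMC lines had none, and non-SMC-only for the reverse. Fold enrichment, the height of a peak over its local background, was compared only within its own list, as a percentile. In each group and direction, the region with the highest mean percentile over both lines of its type is shown first, because these stretches carry the clearest openings of each type next to a guidance gene. The 201 bases around the summit are printed for the plus strand of mm10 in lower case, with matches to 5 short motifs in capitals. The motifs were AP-1 (TGACTCA or TGAGTCA), TEAD (GGAATG), RUNX (TGTGGT or TGCGGT), SOX (ACAAAG or ACAATG) and an E-box (CAGCTG), searched on both strands.

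In the semaphorin/plexin group, the leading SMC-only region was in an intron of *Sema6d*, 416 kb from the 5′ end of the gene, at chr2:124505871-124506606. Its fold enrichment was 10.6 in SMC line 1 and 9.63 in SMC line 2, at the 98.2 and 97.1 percentiles of their lists. The leading non-SMC-only region was in an intron of *Sema3d* at chr5:12542101-12542635, 159 kb from the 5′ end, with a fold enrichment of 21.3 and 13.4 in non-SMC lines 1 and 2. The summit sequence of *Sema6d* held no match, and that of *Sema3d* held a TEAD match and an E-box.
Sema6d, SMC-only, chr2:124506118-124506318: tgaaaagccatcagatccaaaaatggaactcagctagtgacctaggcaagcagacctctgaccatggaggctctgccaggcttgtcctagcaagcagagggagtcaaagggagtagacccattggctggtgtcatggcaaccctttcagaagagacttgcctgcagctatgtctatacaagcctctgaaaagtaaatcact
Sema3d, non-SMC-only, chr5:12542159-12542359: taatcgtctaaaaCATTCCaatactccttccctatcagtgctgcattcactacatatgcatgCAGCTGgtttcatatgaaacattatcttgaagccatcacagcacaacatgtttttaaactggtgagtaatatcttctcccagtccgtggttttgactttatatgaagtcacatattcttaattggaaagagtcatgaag

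In the slit/robo group, the leading SMC-only region was in an intron of *Robo1* at chr16:72959076-72959876, 651 kb from the 5′ end, with a fold enrichment of 14.2 in SMC line 1 and 22.4 in SMC line 2. These stood at the 99.7 percentile of the first list and among the very highest peaks of the second, and the mean of both percentiles was the highest of any type-specific region in the 40 windows. The leading non-SMC-only region was in an intron of *Slit3*, 10.7 kb from the 5′ end, at chr11:35131563-35132229, with a fold enrichment of 12.5 and 6.04 in non-SMC lines 1 and 2. The *Robo1* summit held an E-box and a SOX match, and the *Slit3* summit held an AP-1 match.
Robo1, SMC-only, chr16:72959355-72959555: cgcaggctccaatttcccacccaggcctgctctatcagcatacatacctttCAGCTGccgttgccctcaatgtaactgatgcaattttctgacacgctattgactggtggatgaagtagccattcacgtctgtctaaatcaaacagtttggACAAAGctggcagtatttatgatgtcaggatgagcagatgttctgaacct
Slit3, non-SMC-only, chr11:35131859-35132059: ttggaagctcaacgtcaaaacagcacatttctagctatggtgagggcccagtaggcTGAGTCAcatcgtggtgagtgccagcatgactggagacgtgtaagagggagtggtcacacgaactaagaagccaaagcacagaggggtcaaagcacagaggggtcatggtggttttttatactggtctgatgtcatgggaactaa

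In the netrin group, the leading SMC-only region was in an intron of the receptor gene *Unc5c* at chr3:141659047-141659799, 194 kb from the 5′ end, with a fold enrichment of 10.5 and 13.1. The leading non-SMC-only region was in an intron of the ligand gene *Ntn1* at chr11:68313606-68314418, 86.8 kb from the 5′ end, with a fold enrichment of 16.6 and 9.77. The *Unc5c* summit held 2 E-boxes and a SOX match, and the *Ntn1* summit held an AP-1 and a SOX match.
Unc5c, SMC-only, chr3:141659078-141659278: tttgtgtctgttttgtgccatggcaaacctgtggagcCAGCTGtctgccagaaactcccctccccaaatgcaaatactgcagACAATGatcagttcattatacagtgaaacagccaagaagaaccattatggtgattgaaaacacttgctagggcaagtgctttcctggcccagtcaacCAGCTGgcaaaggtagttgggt
Ntn1, non-SMC-only, chr11:68313961-68314161: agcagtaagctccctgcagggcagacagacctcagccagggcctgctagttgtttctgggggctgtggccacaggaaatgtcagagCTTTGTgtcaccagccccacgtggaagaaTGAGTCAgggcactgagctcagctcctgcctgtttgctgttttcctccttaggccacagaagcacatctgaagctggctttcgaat

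Accessible sites were present at every guidance gene in every library. The 40 windows, from 29.7 kb at *Sema4c* to 1117 kb at *Dcc* with a median of 148 kb, did not overlap each other. They held 443 and 656 peaks of SMC lines 1 and 2 and 537 and 566 peaks of non-SMC lines 1 and 2, in 1607 merged regions. As shares these were 487 and 426 per 100000 in the SMC lines and 464 and 439.7 in the non-SMC lines, so over the whole list the types overlapped. Of the 1607 regions, 101 (6.29%) were SMC-only, beside 4.3% of the regions in the windows of all protein-coding genes. At least 1 such region was present at 30 of the 40 genes, beside 29.8% of all protein-coding genes and 65.2% of those with a window of at least 100 kb. Another 122 (7.59%) were non-SMC-only, beside 7.14%. They were present at 31 of the 40 genes, beside 41.6% of all genes and 76.4% of those with the longer windows. Finally, 45 regions (2.80%) had a peak in all 4 libraries, beside 5.16%.

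The share of listed peaks was higher in both SMC lines at 8 genes (*Plxna4*, *Plxnc1*, *Robo1*, *Robo2*, *Robo3*, *Ntn4*, *Unc5a*, *Dcc*). That is 8 of 40, and 18.7% of all protein-coding genes were separate in this direction. It was higher in both non-SMC lines at 11 genes (*Sema3a*, *Sema3c*, *Sema3d*, *Sema3e*, *Sema4a*, *Sema4f*, *Sema5a*, *Sema7a*, *Plxnb2*, *Slit2*, *Slit3*), beside 16.8% of all genes. The windows of guidance genes are long, and among the 3185 genes with a window of at least 100 kb the background shares were 23.0% and 26.4%. Neither number of separate genes therefore stood apart from the background. Of the 8 genes higher in SMC, 7 encode receptors, and of the 11 higher in non-SMC, 10 encode ligands, as the plot of shares by gene shows. The list holds 17 receptor and 23 ligand genes. These genes are not independent of each other. *Sema3a*, *Sema3c*, *Sema3d*, *Sema3e* and *Slit2* lie on chromosome 5, which as a whole took a higher share in both non-SMC lines. *Robo1* and *Robo2* are neighbors on chromosome 16.

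**Figure D1:**
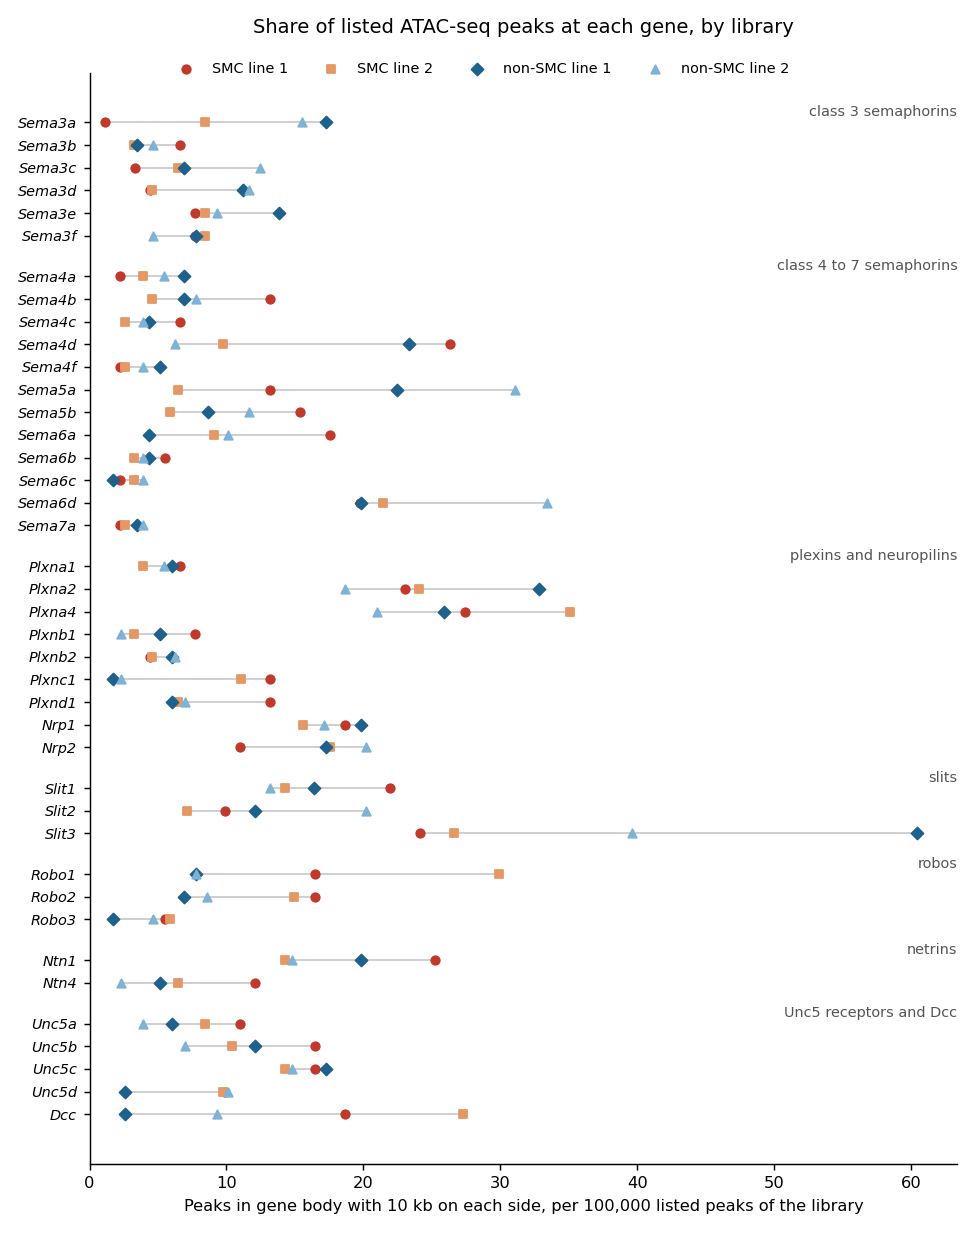
Peaks in the window of each of the 40 genes per 100000 listed peaks of the library (horizontal axis), with 1 point per library and a grey line from the lowest to the highest. Points of both SMC lines (red circles, orange squares) lie to the right of both non-SMC lines (blue diamonds, light blue triangles) at 8 genes such as *Plxnc1*, *Robo1* and *Dcc*, and to the left at 11 genes such as *Sema3a* and *Slit3*.

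Joined across the 3 groups after these values had been seen, the 23 ligand genes took 250.4 and 184 peaks per 100000 in the SMC lines and 286 and 273 in the non-SMC lines. Both non-SMC lines were above both SMC lines. The SMC mean was lower by 62.5, with a pooled SD of 33.8 (n = 2 per type). Its size rested on the SMC lines, since it was -29.2 without SMC line 2 and -95.8 without SMC line 1. The 17 receptor genes took 236 and 242 per 100000 in the SMC lines and 178 and 166 in the non-SMC lines, again without overlap but in the opposite order. For receptors the SMC mean was higher by 67.1, with a pooled SD of 6.56. Ligand windows held 36 (4.14%) SMC-only and 82 (9.44%) non-SMC-only regions, and receptor windows held 65 (8.81%) and 40 (5.42%). In the windows of all protein-coding genes these shares were 4.3% and 7.14%, so the SMC-only share of ligands stood near the background. The order of these region counts turned at the ligands without either SMC line and at the receptors without either non-SMC line, when a single line defines its type. With strong peaks alone, the means kept both directions, but the types overlapped at the ligands, where lines numbered 2 took 228 (SMC) and 227 (non-SMC), and receptor windows then held 21 SMC-only and 26 non-SMC-only regions. The joining was made with the values known, so the separation of the sets describes these genes and is no test of a rule about ligands and receptors.

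The semaphorin/plexin group took 282 and 236 peaks per 100000 in the SMC lines and 293 and 284 in the non-SMC lines. The difference of -28.8 was little larger than the pooled SD of 23.3 (n = 2 per type), and SMC line 1 lay within 2 peaks per 100000 of non-SMC line 2. The size of the difference rested on SMC line 2, since it was -5.88 without that line and -51.7 without SMC line 1. Of 935 regions, 51 (5.45%) were SMC-only and 89 (9.52%) non-SMC-only. In the windows of all protein-coding genes these shares were 4.3% and 7.14%, so non-SMC-only regions were the commoner kind there too. The semaphorins held 21 (3.96%) SMC-only and 58 (10.9%) non-SMC-only regions, and the plexins and neuropilins held 30 (7.41%) and 31 (7.65%).

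Class 3 semaphorins, the secreted members of the family, were more often open in the non-SMC lines. Their 6 windows took 30.7 and 39.6 peaks per 100000 in the SMC lines and 60.4 and 58.3 in the non-SMC lines. The difference of -24.2 compared with a pooled SD of 4.57 (n = 2 per type), and it was -29.7 in line pair 1 and -18.6 in line pair 2. The windows held 7 SMC-only and 26 non-SMC-only regions out of 155, which is 4.52% and 16.8%. Without SMC line 1, when a single line defines SMC-only, they held 43 and 26. *Sema3a*, *Sema3c*, *Sema3d* and *Sema3e* were separate, while *Sema3b* and *Sema3f* overlapped.

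*Sema3a*, the classical growth cone collapsing factor, had 1 peak in SMC line 1, 13 in SMC line 2 and 20 in each non-SMC line. Its strong peaks (-log10 q of 5 or more) numbered 0, 3, 11 and 6 in the same order. All of its 7 type-specific regions were non-SMC-only, and none lay within 3 kb of the 5′ end of the gene, where no library had a peak. The strongest, chr5:13365068-13365625 in an intron 240 kb into the gene, had a fold enrichment of 15.1 and 14.5 in the non-SMC lines. SMC line 1 was nearly empty here, with a share of 1.10 per 100000. The share of SMC line 2, 8.44, lay between that and those of the non-SMC lines, 17.3 and 15.5. Annotated starts of other transcripts 274 kb into the gene had peaks in SMC line 2 and in each non-SMC line. SMC line 1 had no peak there.

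*Sema3c*, a secreted semaphorin that can promote cell growth and migration, had 3 and 10 peaks in the SMC lines and 8 and 16 in the non-SMC lines, and 6 non-SMC-only regions against 0 SMC-only. Its shares in SMC line 2 (6.50) and non-SMC line 1 (6.91) were nearly equal. *Sema3d* had 4 and 7 peaks in the SMC lines and 13 and 15 in the non-SMC lines, with 1 SMC-only and 6 non-SMC-only regions. *Sema3e*, a ligand of *Plxnd1*, had 7 and 13 against 16 and 12 peaks and regions of both kinds, 4 SMC-only and 5 non-SMC-only. The SMC-only region of *Sema3e* at chr5:14031660-14032517 lay beside a non-SMC-only region at chr5:14030765-14031266, both in an intron near the 5′ end. A further SMC-only region at chr5:14038994-14039471 had a fold enrichment of 8.20 and 13.4.

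These 4 class 3 genes are neighbors on chromosome 5, in a stretch of 5.37 Mb. Outside their windows, the same stretch took 69.2 and 97.4 peaks per 100000 in the SMC lines and 82.9 and 128 in the non-SMC lines, which overlap. It held 14 SMC-only and 39 non-SMC-only regions among 349, or 4.01% and 11.2%, so the excess of non-SMC-only regions was not limited to the genes. Chromosome 5 as a whole took 6309 and 6723 per 100000 in the SMC lines and 6855 and 8312 in the non-SMC lines, without overlap. The median local background of the peaks at these genes was between 1.00 and 1.34 times the lowest background of the library.

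Class 4 to 7 semaphorins, mostly membrane-bound, did not separate the types as a family. Their 12 windows took 126 and 75.3 peaks per 100000 in the SMC lines and 111 and 125 in the non-SMC lines, with a pooled SD of 26.4 around a difference of -17.4. The line pairs disagreed in direction, with 14.9 in pair 1 and -49.7 in pair 2. Of 375 regions, 14 (3.73%) were SMC-only and 32 (8.53%) non-SMC-only, beside 4.3% and 7.14% in the windows of all protein-coding genes. Most of the non-SMC-only regions came from *Sema6d* with 11 and *Sema5a* with 8.

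*Sema5a*, a transmembrane semaphorin with thrombospondin repeats, had 12 and 10 peaks in the SMC lines and 26 and 40 in the non-SMC lines. Strong peaks numbered 1, 2, 8 and 5. Non-SMC-only regions clustered between 78.2 and 157 kb from the 5′ end, among them chr15:32322502-32323435 with a fold enrichment of 13.8 and 9.93. The promoter of *Sema5a* was open in all 4 libraries.

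*Sema6d* had 18 and 33 peaks in the SMC lines and 23 and 43 in the non-SMC lines, and its shares overlapped. It held 4 SMC-only and 11 non-SMC-only regions, including the leading SMC-only region of the group shown above. *Sema6a*, a transmembrane ligand of A-type plexins, went the other way in its regions, with 4 SMC-only regions and 1 non-SMC-only region. *Sema6a* had 16 and 14 peaks in the SMC lines and 5 and 13 in the non-SMC lines. Its shares overlapped too, at 17.6 and 9.09 in SMC lines 1 and 2 and 4.32 and 10.1 in non-SMC lines 1 and 2. *Sema4d*, which binds *Plxnb1*, ranged between lines of the same type, from 24 to 15 peaks in the SMC lines and from 27 to 8 in the non-SMC lines. *Sema5b* and *Sema3b* held 2 and 1 SMC-only regions and no non-SMC-only region.

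The promoter of *Sema4f* was SMC-only. Its 5′ end at chr6:82939769 had a peak with a fold enrichment of 5.49 in SMC line 1 and 11.6 in SMC line 2, in a region 304 bases long, and none in the non-SMC lines. In contrast, the body of the gene held 3 non-SMC-only regions, the nearest 3.31 kb and 4.90 kb from the same 5′ end. Thus the share of *Sema4f* was higher in both non-SMC lines while its promoter was open in the SMC lines. The window of the RefSeq promoters of *Sema6d* and *Sema4f* also had a peak in each SMC line and none in the non-SMC lines. At *Sema6d* this held only for that short stretch, since the 6 kb around the same start had 4 and 2 peaks in the SMC lines and 2 and 1 in the non-SMC lines. Both promoters are printed as 300 bases in the direction of transcription, from RefSeq on GRCm38. The *Sema4f* sequence held a SOX match, as did 28.6% of the 32851 promoters in that table.
Sema6d promoter, chr2:124089719-124090018, plus strand: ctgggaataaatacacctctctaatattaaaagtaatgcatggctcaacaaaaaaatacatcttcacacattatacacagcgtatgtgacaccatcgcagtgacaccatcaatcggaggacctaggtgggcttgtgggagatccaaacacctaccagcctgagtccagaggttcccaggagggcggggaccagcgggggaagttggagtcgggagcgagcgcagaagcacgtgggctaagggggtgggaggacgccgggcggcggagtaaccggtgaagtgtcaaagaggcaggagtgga
Sema4f promoter, chr6:82939720-82940019, minus strand: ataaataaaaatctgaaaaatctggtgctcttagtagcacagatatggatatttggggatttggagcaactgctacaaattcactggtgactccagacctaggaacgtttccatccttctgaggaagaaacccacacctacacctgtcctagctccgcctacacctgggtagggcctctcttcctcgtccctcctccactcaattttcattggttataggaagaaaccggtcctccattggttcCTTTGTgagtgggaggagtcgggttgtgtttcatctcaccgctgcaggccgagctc

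Plexins and neuropilins, the receptors of semaphorins, held similar numbers of regions of both kinds. The 9 windows took 125 and 121 peaks per 100000 in the SMC lines and 121 and 100.2 in the non-SMC lines, with a difference of 12.8 and a pooled SD of 10.5. Of 405 regions, 30 (7.41%) were SMC-only and 31 (7.65%) non-SMC-only. In the windows of all protein-coding genes these shares were 4.3% and 7.14%. The SMC-only share thus lay above the background and the non-SMC-only share near it. Individual receptors differed, as the plot of type-specific regions shows.

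*Plxnc1*, the receptor of *Sema7a*, had the largest difference in share of these 9 genes. It had 12 and 17 peaks in the SMC lines and 2 and 3 in the non-SMC lines, or 13.2 and 11.04 against 1.73 and 2.33 per 100000. Its promoter was SMC-only, with a region at chr10:94943599-94944375 of modest height, 4.14-fold and 3.49-fold. A start of a shorter transcript 115 kb into the gene was likewise open in the SMC lines and not in the non-SMC lines. The highest SMC-only region, chr10:94799500-94799838 in an intron, had a fold enrichment of 6.00 and 7.23. *Plxnc1* had more SMC-only than non-SMC-only regions in all 4 other settings tried for region counts and without each of the 4 libraries in turn. Its strong peaks were few, however, with 1 and 2 in the SMC lines and 1 in each non-SMC line. Its ligand gene *Sema7a* had 2 and 4 peaks in the SMC lines and 4 and 5 in the non-SMC lines, with 3 non-SMC-only regions and no SMC-only region.

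*Plxna4*, a neuronal receptor of class 3 and class 6 semaphorins, had 25 and 54 peaks in the SMC lines and 30 and 27 in the non-SMC lines. Its leading SMC-only region, chr6:32314834-32315693 in an intron, had a fold enrichment of 10.6 and 8.11. Its shares in the lines numbered 1 differed little, 27.5 in SMC and 25.9 in non-SMC. *Plxna2* held the most SMC-only regions of any of the 40 genes, 9, together with 6 non-SMC-only regions, and its shares overlapped. The strongest of its regions was non-SMC-only, chr1:194671727-194672429, with a fold enrichment of 13.2 and 13.9. *Nrp1* held 6 SMC-only and 7 non-SMC-only regions, and *Nrp2* held 2 and 7. Both neuropilins had promoters open in all 4 libraries, and the shares of both overlapped between the types.

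Of the remaining receptors, *Plxnb2* took a slightly higher share in both non-SMC lines, 6.04 and 6.22 against 4.39 and 4.55, which rests on between 4 and 8 peaks per library. *Plxna1* held 1 SMC-only and 2 non-SMC-only regions, and *Plxnd1* held 2 of each. *Plxnb1* was the only gene of the 40 with neither kind of region.

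**Figure D2:**
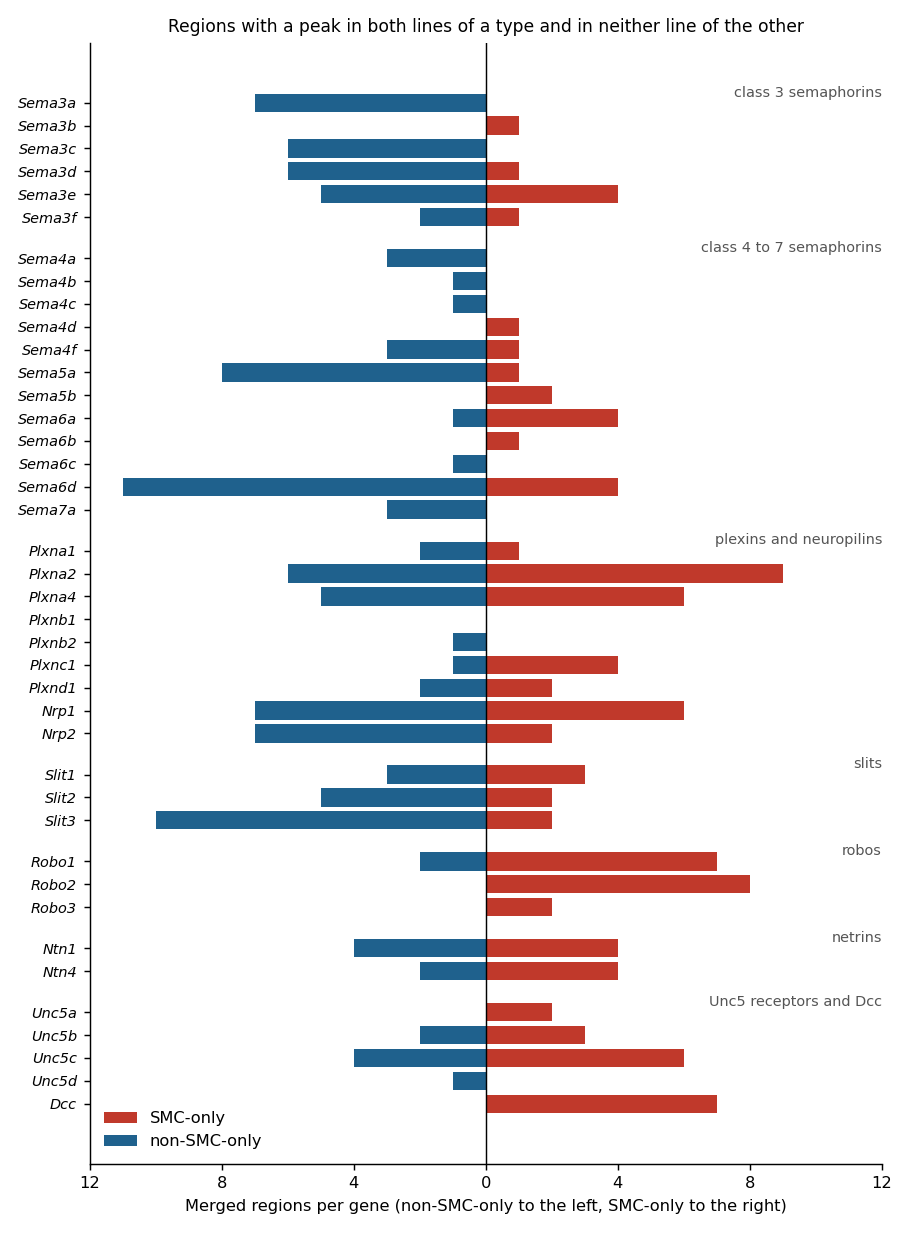
Number of SMC-only regions (red bars, to the right) and non-SMC-only regions (blue bars, to the left) in the window of each of the 40 genes, grouped by family. The robo genes and *Dcc* extend only or mostly to the right with up to 8 regions at *Robo2*, whereas *Sema3a*, *Sema3c*, *Sema3d*, *Sema5a*, *Sema6d* and *Slit3* extend only or mostly to the left with up to 11 at *Sema6d*.

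Slits and robos, ligand and receptor of a single pathway, went in opposite directions in their share of listed peaks. The 3 slit windows took 56.0 and 48.1 peaks per 100000 in the SMC lines and 88.9 and 73.0 in the non-SMC lines, a difference of -28.9 with a pooled SD of 8.88. The 3 robo windows took 38.4 and 50.7 in the SMC lines and 16.4 and 20.98 in the non-SMC lines, a difference of 25.9 with a pooled SD of 6.53. Among 253 slit regions, 7 (2.77%) were SMC-only and 18 (7.11%) non-SMC-only. The shares in the windows of all protein-coding genes were 4.3% and 7.14%, so non-SMC-only slit regions stood at the background. Among 119 robo regions, 17 (14.3%) were SMC-only and 2 (1.68%) non-SMC-only. The count of robo regions depended on non-SMC line 1, without which there were 17 SMC-only and 19 non-SMC-only regions, because a single line then defines non-SMC-only. Added together as slit/robo, the opposite differences left -3.08 with a pooled SD of 6.05, and the line pairs gave -10.9 and 4.72. Among strong peaks, however, slit/robo took 153 and 129 per 100000 such peaks in the SMC lines and 84.1 and 19.9 in the non-SMC lines. That is a difference of 89.1, with 17 and 24 such peaks at robos in the SMC lines against 3 and 0. At slits strong peaks overlapped, with 23.0 and 38.0 per 100000 in the SMC lines and 77.3 and 19.9 in the non-SMC lines.

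*Slit3* carried most of the slit difference. It had 22 and 41 peaks in the SMC lines and 70 and 51 in the non-SMC lines, or 24.2 and 26.6 against 60.4 and 39.6 per 100000. At a -log10 q of at least 5, however, non-SMC line 1 had 24 peaks and the other libraries had between 0 and 4. The strength of these peaks thus rested on non-SMC line 1, in which a larger part of all peaks passed that limit. The *Slit3* promoter was non-SMC-only, as were 2.45% of all promoters. Of its 10 non-SMC-only regions, the 3 with the highest mean percentile lay between 10.7 and 71.8 kb from the 5′ end, among them chr11:35167037-35167713 with a fold enrichment of 12.1 and 5.07.

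*Slit2* had 9 and 11 peaks in the SMC lines and 14 and 26 in the non-SMC lines. It held 5 non-SMC-only and 2 SMC-only regions, and the SMC-only region at chr5:48013382-48013783 was the strongest of them, with a fold enrichment of 7.55 and 18.6. The leading non-SMC-only region, chr5:48060698-48060993, had 14.8 and 4.27. *Slit1* did not separate, with 20 and 22 against 19 and 17 peaks and 3 regions of each kind. Its promoter was SMC-only within the 6 kb around the 5′ end through peaks 2.66 kb upstream, and it was not within 2 kb or 1 kb windows.

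*Robo1* had 15 and 46 peaks in the SMC lines and 9 and 10 in the non-SMC lines, and at a -log10 q of at least 5 it had 9 and 13 against 1 and 0. All of its 7 SMC-only regions fell in introns, between 333 and 651 kb from the 5′ end. Besides the leading region, they included chr16:72778450-72779078 with a fold enrichment of 9.76 and 16.0, chr16:72924516-72925059 with 9.80 and 14.2, and chr16:72934965-72935206 with 8.96 and 11.8. No library had a peak within 3 kb of the 5′ end of the gene, but an annotated start of other transcripts 355 kb into the gene had a peak in all 4. Thus the types shared this open start of *Robo1*, and 1 of the 7 SMC-only regions lay upstream of it and 6 lay downstream.

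*Robo2* had 15 and 23 peaks in the SMC lines and 8 and 11 in the non-SMC lines, and 8 and 10 against 1 and 0 at a -log10 q of at least 5. Its promoter was open in all 4 libraries. All 8 of its type-specific regions were SMC-only, led by chr16:74076831-74077176 with a fold enrichment of 11.7 and 12.99 and chr16:74034487-74035049 with 10.9 and 12.7. *Robo3*, a divergent member that controls midline crossing, had few peaks, 5 and 9 against 2 and 6, and 2 weak SMC-only regions. The region in an exon 3.29 kb from its 5′ end had a fold enrichment of 2.34 in SMC line 1, lower than most peaks of that list.

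*Robo1* and *Robo2* are neighbors on chromosome 16 within 2.12 Mb. The DNA between their windows showed the same order, with 20 and 37 peaks in the SMC lines and 3 and 14 in the non-SMC lines, or 21.96 and 24.0 against 2.59 and 10.9 per 100000. Of 56 regions there, 11 (19.6%) were SMC-only and 3 (5.36%) non-SMC-only. The difference was therefore not limited to the gene bodies. The median local background of peaks at both genes was between 1.00 and 1.12 times the lowest of the library. Chromosome 16 as a whole took between 3525 and 3929 per 100000 in the 4 libraries, and its types overlapped.

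**Figure D3:**
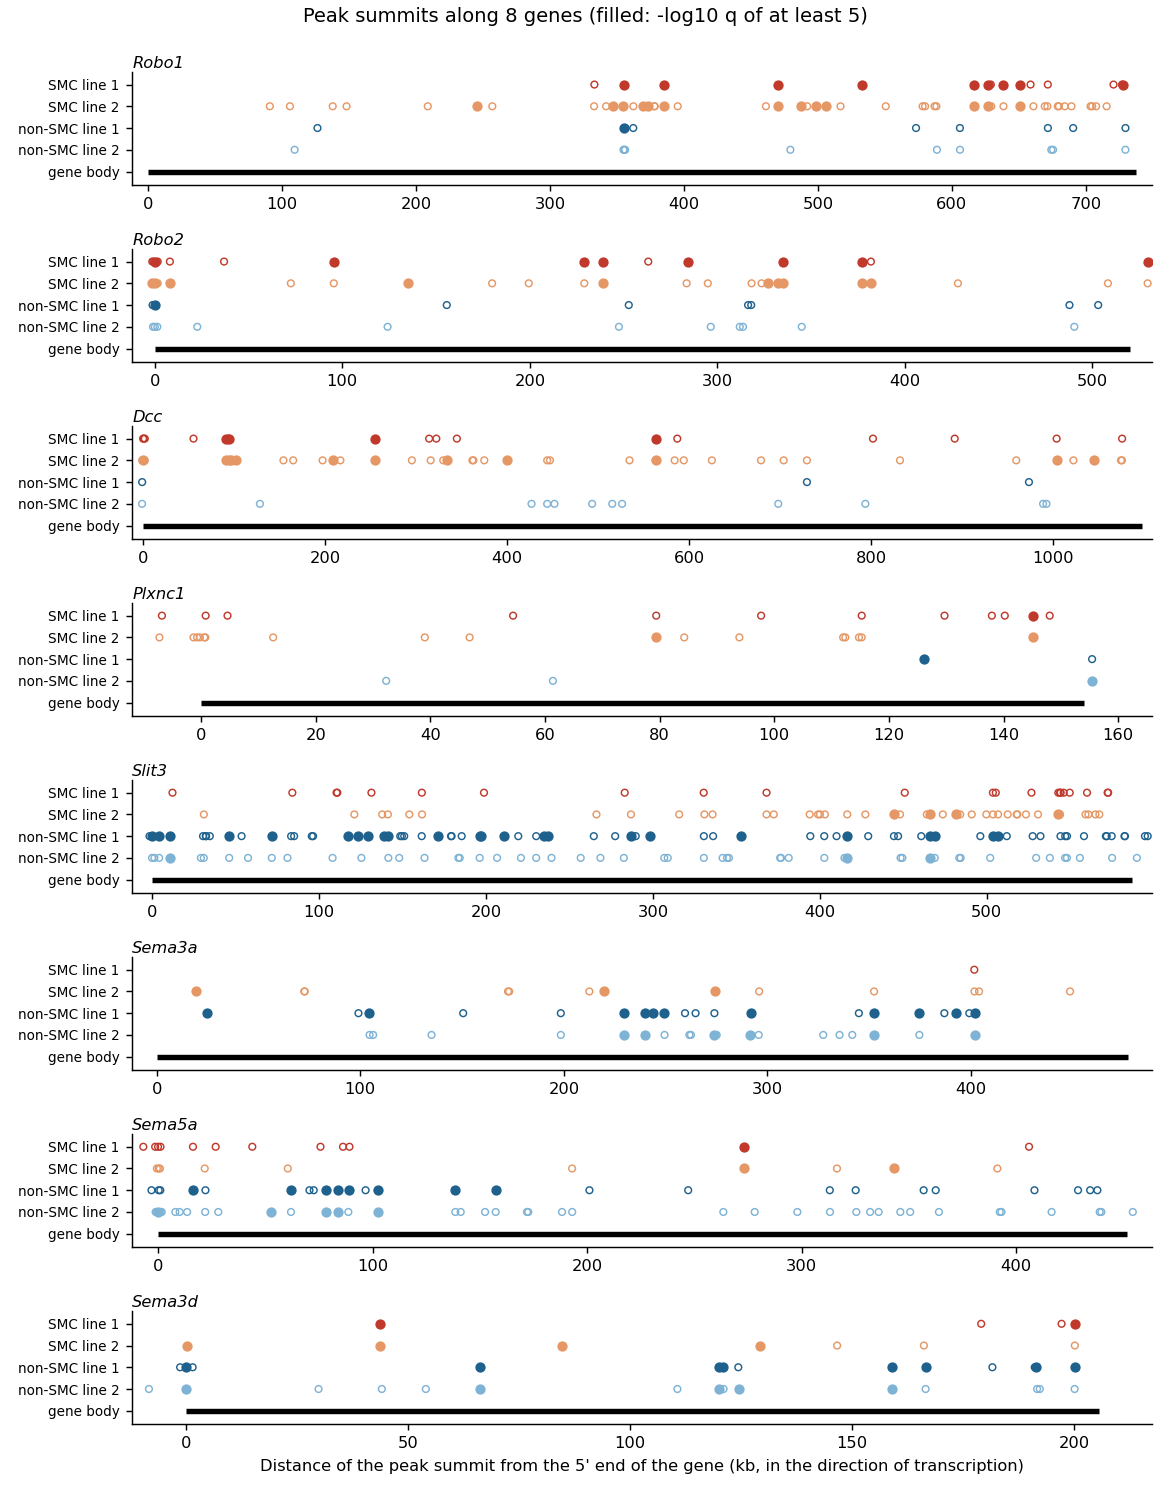
Peak summits of the 4 libraries along 8 genes, by distance in kb from the 5′ end in the direction of transcription (horizontal axis), with filled points for a -log10 q of at least 5 and a black bar for the gene body. *Robo1*, *Robo2*, *Dcc* and *Plxnc1* show more summits in the SMC rows, with more filled points at the first 3 of them, while *Slit3*, *Sema3a*, *Sema5a* and *Sema3d* show more in the non-SMC rows, in *Slit3* with the filled points mostly in non-SMC line 1.

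The netrin group took a higher share in both SMC lines, through its receptors more than its ligands. The 7 windows took 109.8 and 90.9 peaks per 100000 in the SMC lines and 65.6 and 62.2 in the non-SMC lines, a difference of 36.5 with a pooled SD of 9.60. The difference was 44.2 in line pair 1 and 28.8 in line pair 2. Of 300 regions, 26 (8.67%) were SMC-only and 13 (4.33%) non-SMC-only. *Dcc* and the Unc5 genes took 72.5 and 70.2 against 40.6 and 45.1 per 100000, a difference of 28.5 with a pooled SD of 2.53. The netrins themselves took 37.3 and 20.8 against 25.0 and 17.1, which overlapped.

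*Dcc*, the attractive netrin receptor, had 17 and 42 peaks in the SMC lines and 3 and 12 in the non-SMC lines. At a -log10 q of at least 5 it had 4 and 12 in the SMC lines and 0 in both non-SMC lines. All of its 7 type-specific regions were SMC-only, the highest with a fold enrichment of 7.55 and 8.18 in an intron 564 kb from the 5′ end. Each library had a peak within the 6 kb promoter window of *Dcc*, and within 1 kb centred on the 5′ end the SMC lines alone had peaks. Among the 4 Unc5 receptors, *Unc5a* was separate with 10 and 13 against 7 and 5 peaks, though no peak in its window reached a -log10 q of 5. *Unc5b* held 3 SMC-only and 2 non-SMC-only regions and *Unc5c* held 6 and 4, and the shares of both overlapped. Sites of both kinds at these genes were strong, as in the *Unc5c* introns at chr3:141810758-141811318 (SMC-only, 8.94 and 7.28) and chr3:141690569-141691110 (non-SMC-only, 15.7 and 5.92) and in the *Unc5b* intron at chr10:60814347-60814978 (non-SMC-only, 8.04 and 10.5). *Unc5d* had 9 and 15 peaks in the SMC lines and 3 and 13 in the non-SMC lines, so non-SMC line 1 stood apart from the other 3 libraries.

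*Ntn4*, a netrin of basement membranes, had 11 and 10 peaks in the SMC lines and 6 and 3 in the non-SMC lines, with 4 SMC-only and 2 non-SMC-only regions. The leading SMC-only region, chr10:93741315-93742321, had a fold enrichment of 7.18 and 11.6. *Ntn1*, the founding netrin, had 23 and 22 against 23 and 19 peaks and 4 regions of each kind. Its shares overlapped, while the height of single regions differed, from 16.6-fold and 9.77-fold at the non-SMC-only region shown above to 7.13-fold and 6.02-fold at its leading SMC-only region.

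**Figure D4:**
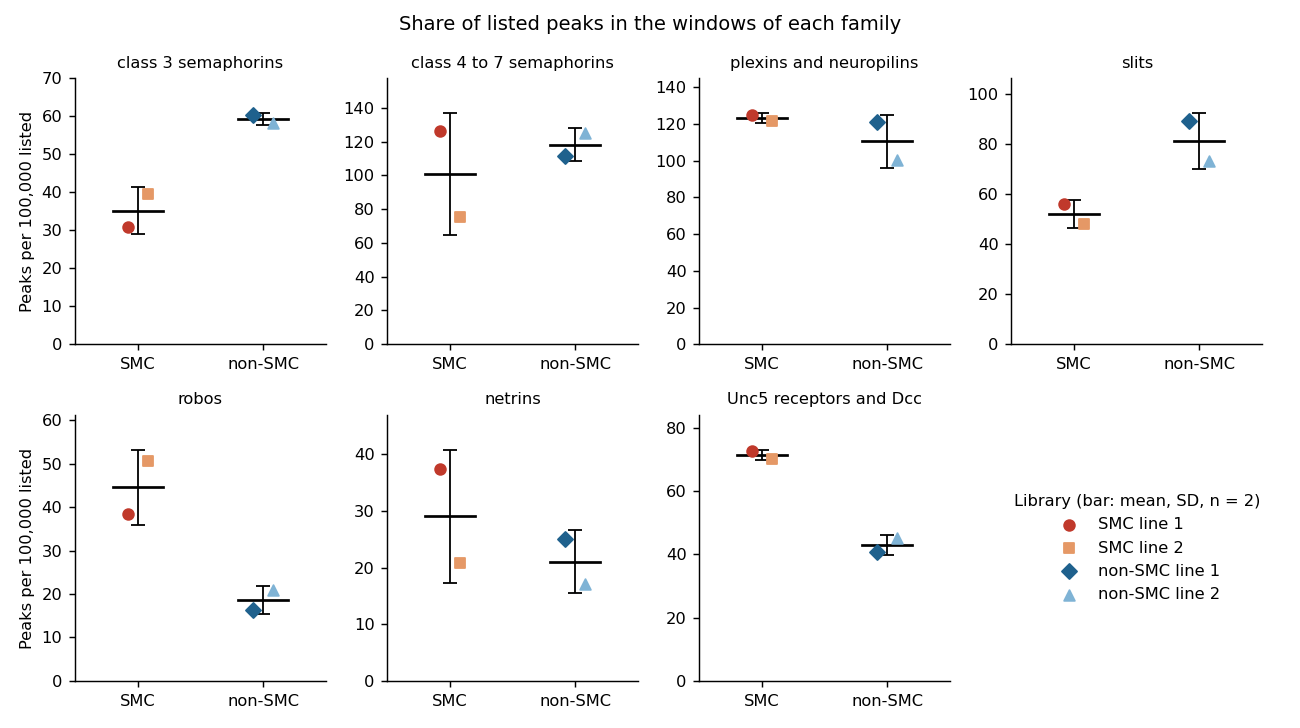
Peaks per 100000 listed peaks in the windows of each of 7 families (vertical axes, each from 0 on its own scale), with 1 point per library and the mean and SD of the lines of each type (n = 2). The types are separate for class 3 semaphorins and slits (non-SMC higher) and for robos and Unc5 receptors with Dcc (SMC higher), also for plexins and neuropilins by a small margin (121 in the nearest lines of both types), and they overlap for class 4 to 7 semaphorins and netrins.

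Promoters of guidance genes seldom differed between the types. With a promoter as the 6 kb centred on the 5′ end, 25 of the 40 genes had a peak in all 4 libraries, beside 48.7% of all protein-coding genes. *Plxnc1*, *Sema4f* and *Slit1* were SMC-only, beside 3.08% of all genes, and *Slit3* was non-SMC-only, beside 2.45%. *Sema3a* and *Robo1* had no peak at the 5′ end in any library, beside 19.2%, and the remaining 9 genes had peaks in 1 to 3 libraries in other combinations. No SMC-only promoter held at a -log10 q of at least 5. Counting the start of every annotated transcript left *Plxnc1* as SMC-only and *Slit3* as non-SMC-only.

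Most regions in these windows lay in introns, except those open in all 4 libraries. Of the 101 SMC-only regions, 82 (81.2%) were in introns and 7 (6.93%) lay within 3 kb of a start of a protein-coding gene, beside 14.9% of the SMC-only regions in all gene windows. Of the 122 non-SMC-only regions, 104 (85.2%) were in introns and 7 (5.74%) were that near a start, beside 11.9%. Regions with a peak in 1 to 3 libraries in other combinations were much alike, with 1069 of 1339 (79.8%) in introns and 6.57% near a start. In contrast, 14 of the 45 regions open in all 4 libraries (31.1%) were in introns and 28 (62.2%) were near a start, beside 72.8%. The windows of guidance genes are longer than those of most genes, and the part of window length in this difference was not tested.

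Motifs at the summits differed between the types at guidance genes as they did in the whole genome. AP-1 letters were present within 100 bp of the summit in 5 of 101 SMC-only regions (4.95%) and in 58 of 122 non-SMC-only regions (47.5%). Over the whole genome the same shares were 4.19% of 15618 and 46.8% of 26224 regions, so the guidance genes stood close to the background of each type. *Sema3a* had AP-1 letters in 6 of 7 non-SMC-only regions, *Sema6d* in 6 of 11 and *Sema5a* in 5 of 8. No SMC-only region of the semaphorin/plexin group had them (0 of 51), and of the 5 that did, 3 were at *Dcc* and 2 at *Robo1*. TEAD letters were in 9.90% of SMC-only and 22.1% of non-SMC-only regions, beside 9.48% and 19.3% in the genome.

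SOX letters were in 47.5% of SMC-only and 34.4% of non-SMC-only regions, beside 40.5% and 27.5% in the genome. The E-box was in 24.8% and 13.9%, beside 21.1% and 14.1%. RUNX letters were in 13.9% and 26.2%, beside 15.9% and 31.6%. A match of 6 or 7 letters describes the sequence and does not show that a factor bound there.

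**Figure D5:**
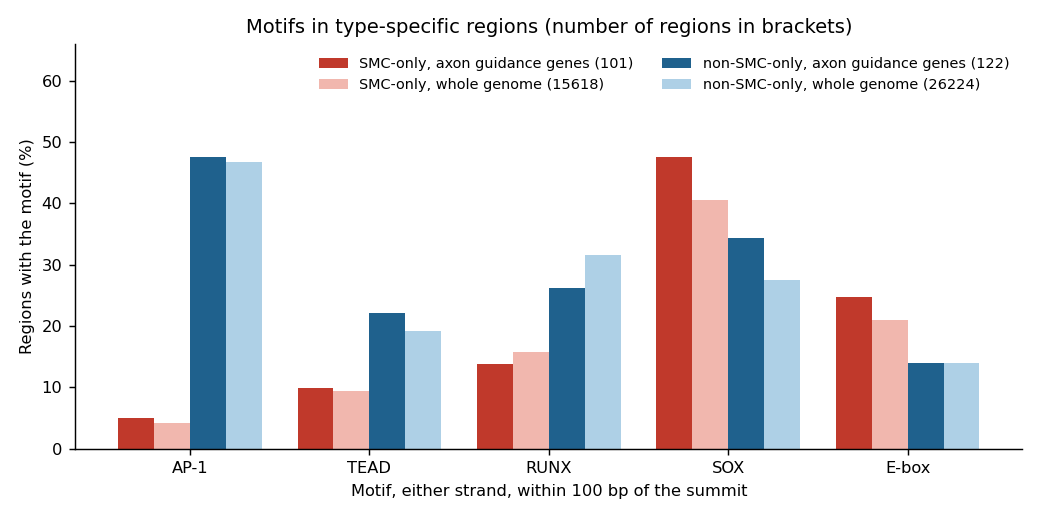
Share of type-specific regions with each of 5 motifs within 100 bp of the summit (vertical axis, percent), in the windows of the 40 genes (dark bars) and in the whole genome (light bars). For AP-1 the non-SMC-only bars stand at 47.5% and 46.8% and the SMC-only bars at 4.95% and 4.19%, and the other motifs show the same order of the types at the 40 genes as in the genome.

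Among 61 other genes of the pathway, SMC-only regions outnumbered non-SMC-only regions at 23, the reverse held at 23, and 15 had equal numbers. Their windows held 99 SMC-only and 131 non-SMC-only regions out of 1889, or 5.24% and 6.93%. In the windows of all protein-coding genes these shares were 4.3% and 7.14%, so non-SMC-only regions were the commoner kind there too. Ephrins and their receptors, a separate contact-dependent guidance system, held 36 (7.5%) and 19 (3.96%) of 480. *Ephb2* held the most SMC-only regions of these genes, 7, with 3 non-SMC-only regions. *Epha5* held 6 and 0, *Epha6* held 5 and 0 with an SMC-only promoter, and *Efna5* held 6 and 2. Coreceptors and intracellular partners held 48 (4.50%) and 94 (8.81%) of 1067. There *Dock1*, an activator of the small GTPase Rac, held 0 and 10, *Dpysl3*, a collapsin response mediator protein, held 0 and 9, and *Farp1* held 6 and 12. The other members of the semaphorin, plexin, robo and netrin families and related ligands held 15 (4.39%) and 18 (5.26%) of 342.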

How the data were processed

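ATAC-seq peak lists of 4 libraries (SMC lines 1 and 2, non-SMC lines 1 and 2) were analyzed. The authors mapped paired-end reads to mm10 with Bowtie2 2.3.4, removed duplicates with sambamba and called peaks per library with MACS2 2.1.1, without pooling. The settings of the peak calling are not given in the sources used here. The authors deposited for each peak summit its fold enrichment, a ratio to the background around it, and -log10 values of p and q. The deposited score column was not used. The depth of the libraries in reads was not analysed here. The lowest recovered local background was 0.456 and 1.54 in SMC lines 1 and 2 and 1.49 and 0.639 in non-SMC lines 1 and 2. It thus differed between lines of a type, and its part in the type-specific regions was not tested. Precision is also limited by 2 lines per type.

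Peaks outside chromosomes 1 to 19, X and Y (61 to 85 per library) were left out. Genes and transcript starts came from GENCODE release M21, sequences from GRCm38 (mm10), and promoter sequences from the RefSeq table, which held 44 promoters of 31 of the 40 genes. Merging, window counts, background recovery and motif matching were tested on simulated data and against bedtools 2.31.1. The local background was recovered from fold enrichment and p for all but at most 5 peaks per library. Samples were grouped by their titles. The results compared were shares, type-specific regions, promoters and motifs, with no statistical test between types. Per family, up to 4 genes per direction with the largest difference in region counts were described, every gene with a type-specific promoter, and the 3 highest regions of each group and direction. Further genes named were chosen after their values were seen. The genes, lists, motifs and alternatives were chosen with earlier results of these data known. The sets of all ligands and of all receptors, and the stretches between neighboring genes, were added after the data had been seen. Alternatives were strong peaks alone (-log10 q of 5 or more), lists shortened to their 91057 top peaks, gene bodies without flanks, bases covered, a reciprocal overlap of 50%, other promoter and motif windows, and each line left out in turn. Python 3.11.15, numpy 2.4.6, pandas 2.3.3, scipy 1.17.1, pysam and samtools were used.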

Additional observations from a re-analysis of the deposited data

Results flagged for a closer look

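For 2 sets of genes the line pairs moved in opposite directions, and the difference between the pairs was not tested. A pair here means only lines of equal number, which are not said to share a mouse. For slit/robo, SMC minus non-SMC was -10.9 peaks per 100000 in line pair 1 and 4.72 in line pair 2. For the class 4 to 7 semaphorins it was 14.9 in line pair 1 and -49.7 in line pair 2. At *Sema4d*, lines of the same type differed, with 24 and 15 peaks in the SMC lines and 27 and 8 in the non-SMC lines, and both lines numbered 1 had more.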

How the results depend on the processing

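No paired analysis was possible because the differences come from no test: the types were compared without one by choice, and no replicate block was fitted. Values for lines of equal number are given instead. Of the differences in share of the 3 groups, the ligands and the receptors, slit/robo changed sign between settings and the others did not. With peaks of a -log10 q of at least 5, differences in share (SMC minus non-SMC, per 100000) became -67.6 for semaphorin/plexin, 89.1 for slit/robo, 82.4 for netrin and 151.0 for all receptors. SMC-only and non-SMC-only regions then numbered 33 and 61 over all genes, 13 and 52 for semaphorin/plexin, 9 and 4 for slit/robo, 11 and 5 for netrin, 12 and 35 for ligands, and 21 and 26 for receptors, whose order changed. SMC-only promoters were then 0 and non-SMC-only promoters 2 (*Plxnd1*, *Sema4c*), and AP-1 shares were 15.2% of SMC-only and 57.4% of non-SMC-only regions. With the same number of top peaks, slit/robo gave 7.14 and receptors 75.2, and by bases covered 8.72 and 82.3, while gene bodies without flanks gave 58.2 for receptors. In line pair 1 alone slit/robo gave -10.9 and receptors 58.3, in line pair 2 alone 4.72 and 76.0. A reciprocal overlap of 50% left netrin with 15 SMC-only and 7 non-SMC-only regions. The start of every transcript left 1 SMC-only promoter, and a 2 kb window gave 2 non-SMC-only promoters (*Plxna2*, *Slit3*).

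Without each line in turn, the differences ran from -51.7 to -5.88 for semaphorin/plexin, from -8.73 to 2.58 for slit/robo, from 27.1 to 45.9 for netrin, from -95.8 to -29.2 for ligands and from 61.4 to 72.9 for receptors. Region counts rise without a line, since a single line then defines its type. SMC-only regions ran from 104 to 514 over all genes, 53 to 272 for semaphorin/plexin, 25 to 124 for slit/robo, 26 to 118 for netrin, 37 to 204 for ligands and 67 to 310 for receptors. Non-SMC-only regions ran from 136 to 452, 97 to 288, 24 to 99, 15 to 65, 92 to 284 and 44 to 168 in the same order. SMC-only promoters ran from 3 to 5 and non-SMC-only promoters from 1 to 3. The order of both counts therefore follows the line left out for most genes, and *Plxnc1* and *Sema3d* kept it without each of the 4 lines. With 2 lines per type, a gene with few peaks can separate the types through 1 or 2 peaks.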

Other observations

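Of the 31 guidance genes with a promoter in the RefSeq table, the 44 promoters held a median of 18 CpG sites in 300 bases, beside 7 over all 32851 promoters. AP-1 letters were in 4.55% of them, beside 5.20%, and SOX letters in 27.3%, beside 28.6%.

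Type-specific regions with a -log10 q of at least 5 in both lines of their type numbered 31 for SMC-only and 43 for non-SMC-only. The median width was 388 bases for SMC-only regions and 439 for non-SMC-only regions, beside 363 and 429 in the windows of all genes.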
